A study of Mus musculus with 24 samples.

Results

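The genes described here are 37 interferon-induced genes, 25 usually described as targets of type I interferon and 12 usually described as targets of interferon-gamma. They were chosen by gene name among the non-control rows of the scanner files. All 37 were on the array, under 49 probes, among 35019 named genes in all. The brightest probe that passed a filter on dim signals stood for each gene, and all 37 members passed, as did 23506 genes in the whole series. RNA came from the aorta of C57BL/6 mice, wild type or deficient in IL-17, and was read on 24 single-colour Agilent arrays. Mice of each genotype received vehicle (control), salt alone as 1% NaCl in the drinking water, an infusion lasting 3 days, or the salt challenge before and throughout that infusion. That made 8 groups of 3 arrays, from 3 biological replicates per group as the series describes them. The treatment protocol gives the infusion as BAPN, which blocks the cross-linking of collagen and elastin, together with angiotensin II, a peptide that raises blood pressure, while the sample tag names BAPN alone. The label of the knockout does not say which IL-17 gene was deleted, and the ages of the mice were not given in the sources used here.

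Interferons are secreted proteins that switch on antiviral and immune genes. The type I interferons, which include the interferon-alpha family and interferon-beta, signal through the receptor made of Ifnar1 and Ifnar2 to a complex that includes Stat2 and Irf9 and binds the interferon-stimulated response element (ISRE). Interferon-gamma, made by T cells and natural killer cells, signals through Ifngr1 and Ifngr2 to genes that carry the gamma-activated sequence (GAS). Many genes answer to both, so the split into classes follows usual practice and is not exclusive. Cxcl10 is an example: it stands among the interferon-gamma targets here and type I interferon induces it too.

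Promoters are shown because both elements are known routes by which interferons act on their targets. The classes were set by gene name and not by these letters. RefSeq windows on GRCm38.p6, running from 250 bases before to 50 bases after each annotated start, matched 28 of the 37 members. Those not matched were Parp14, Oas2, Usp18, Zbp1, Rtp4, Mx2, Dhx58, Cxcl11 and Mx1. The letters GAAANNGAAA, an ISRE core searched on both strands, were found for 15 of the 28 matched members (10 of 17 type I and 5 of 11 interferon-gamma targets) and in 3.44% of all 32851 windows. The letters TTCNNNGAA, a GAS core that reads the same on both strands, were found for 6 of the 28 (3 type I and 3 interferon-gamma targets) and in 8.3% of all windows. Overlapping matches were allowed. A match describes letters only. The 250 bases before the start are printed for 6 members, 5' to 3' along the gene's strand, with every match to either core in capitals. Isg15 (chr4:156200819-156201068, minus strand) and Ifit1 (chr19:34640639-34640888, plus strand) are type I targets with several ISRE cores. Cxcl10 (chr5:92348890-92349139, minus strand) and Irgm1 (chr11:48871421-48871670, minus strand) are interferon-gamma targets that carry ISRE cores and rose in these data. Igtp (chr11:58199306-58199555, plus strand) carries both cores, and Irf1 (chr11:53769764-53770013, plus strand) carries the GAS core alone.
Isg15: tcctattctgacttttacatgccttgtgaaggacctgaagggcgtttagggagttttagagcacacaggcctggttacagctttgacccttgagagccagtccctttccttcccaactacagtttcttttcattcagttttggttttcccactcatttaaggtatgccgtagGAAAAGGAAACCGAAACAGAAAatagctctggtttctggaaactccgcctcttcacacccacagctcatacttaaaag
Ifit1: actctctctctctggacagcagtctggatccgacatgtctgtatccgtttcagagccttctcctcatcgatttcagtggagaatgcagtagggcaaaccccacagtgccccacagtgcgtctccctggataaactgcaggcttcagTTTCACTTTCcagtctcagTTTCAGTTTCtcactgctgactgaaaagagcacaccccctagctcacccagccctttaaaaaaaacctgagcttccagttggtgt
Cxcl10: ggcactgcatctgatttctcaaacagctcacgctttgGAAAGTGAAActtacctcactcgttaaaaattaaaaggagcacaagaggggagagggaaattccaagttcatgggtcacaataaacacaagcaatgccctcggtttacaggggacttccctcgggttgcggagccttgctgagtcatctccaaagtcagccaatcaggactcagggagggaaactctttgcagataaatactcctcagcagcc
Irgm1: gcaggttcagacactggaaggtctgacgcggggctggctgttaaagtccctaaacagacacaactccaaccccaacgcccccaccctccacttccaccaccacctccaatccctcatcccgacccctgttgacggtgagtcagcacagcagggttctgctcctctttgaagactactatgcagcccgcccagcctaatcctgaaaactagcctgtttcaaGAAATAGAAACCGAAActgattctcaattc
Igtp: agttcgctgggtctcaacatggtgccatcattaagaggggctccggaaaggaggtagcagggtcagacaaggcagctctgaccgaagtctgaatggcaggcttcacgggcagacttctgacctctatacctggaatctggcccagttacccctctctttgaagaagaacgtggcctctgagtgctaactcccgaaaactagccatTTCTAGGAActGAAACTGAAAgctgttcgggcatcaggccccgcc
Irf1: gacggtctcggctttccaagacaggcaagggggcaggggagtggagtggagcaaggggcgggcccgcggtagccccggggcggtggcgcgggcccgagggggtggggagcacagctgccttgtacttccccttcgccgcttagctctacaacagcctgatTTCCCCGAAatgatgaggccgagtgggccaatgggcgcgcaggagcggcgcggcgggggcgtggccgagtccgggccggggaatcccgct

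Signals are given as log2 of the processed spot signal minus log2 of the array's 75th percentile, so 0 means a signal equal to that percentile, and a change is a difference between group means on this scale. Between 51.1% and 60.8% of spots were well above background on an array, the 75th percentile lay between 270 and 772, and no spot was saturated. Arrays lay on 4 slides: no slide held both genotypes, so genotype and slide cannot be told apart. Wild-type infusion arrays lay on another slide than the wild-type controls, and the knockout arrays with salt and infusion on another slide than the knockout controls. In the knockout with infusion alone, array 3 lay on slide 2 and the others on slide 1 with the controls. In the wild type with salt and infusion, array 3 lay on slide 4 and the others on slide 3 with the controls. Smooth muscle markers were well above background on every array, 8 of 8 of them, which matches the labelled aorta, although the extraction protocol speaks of cells. Il17a was well above background on 0 of 24 arrays, with signals from -7.67 to -5.60 over both genotypes. Il17f was likewise on 0 of 24, so neither probe checks the knockout label. Of the members, 34 were well above background on all 24 arrays. The exceptions were Oas3 (5 arrays), Cxcl9 (19 arrays) and Cxcl10 (22 arrays). On the array's mm9 coordinates the probes that lead the results below lie at chr4:155573649-155573708 (Isg15), chr5:115387861-115387920 (Oasl1), chr2:173039307-173039366 (Zbp1), chr5:92775781-92775840 (Cxcl10) and chr11:48679069-48679128 (Irgm1), and no mm9 annotation was used here to place them within exons.

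A few arrays stood apart. On array 2 of the salt-and-infusion group in the wild type, 8 of 12 interferon-gamma targets were more than 1 log2 unit above both other arrays of the group, against 1 of 25 type I targets and 247 of 23506 genes. Array 3 of each infused group without salt had the smallest type I response of its group, with medians over the 25 genes of -0.08 in the wild type and 0.70 in the knockout, relative to that genotype's controls, against 0.58 and 0.67 on the other wild-type arrays and 1.45 and 1.84 on the other knockout arrays. Those 2 arrays also stood apart over the whole array: 971 and 1528 of 23506 genes were more than 1 log2 unit above both other arrays of the group in the wild type and the knockout, against 34 to 289 on the other 22 arrays. On the knockout array the summed signal of macrophage and monocyte markers, in units of the array's 75th percentile, was 167 against 232 and 236, and that of smooth muscle markers 1902 against 1294 and 1332. On the wild-type array these sums were 236 against 241 and 275, and 2322 against 2055 and 2001. The interferon-gamma median relative to controls was 0.15 on the wild-type array, against 0.14 and -0.02 on the others of its group. On the knockout array it was 0.03, against 0.52 and 1.07. On array 1 of the knockout controls, Isg15 (0.32 against 1.46 and 1.51) and Bst2 (0.87 against 2.64 and 2.80) were low. The main counts and the values that move by over 1.5 times are also given without these arrays.

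In the knockout aorta, type I targets rose with infusion. Isg15, Oasl1, Oas1a and 15 others passed the test, with changes up to 2.66 log2 units, and the median over the 25 genes was 1.35 against -0.05 over all genes. In total 22 of the 37 members were higher than in knockout controls (limma, Benjamini-Hochberg adjusted p under 0.05), 18 type I and 4 interferon-gamma targets, and 0 were lower. Over all genes tested, 14.3% were called higher and 30.6% in either direction. The interferon-gamma targets that rose were Cxcl10, Irgm1, Cxcl9 and Ifi47, and the median of the 12 was 0.54.

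Oasl1, an oligoadenylate synthetase-like protein that restrains translation of Irf7, lay at -1.68, -1.71 and -1.92 on the knockout control arrays and at 1.34, 1.40 and -0.07 on the infused ones. All 3 infused arrays were above all 3 controls, and the change was 2.66 (SE 0.42, adjusted p = 0.000275, n = 3 and 3). Isg15, a ubiquitin-like protein attached to other proteins, went from 0.32, 1.46 and 1.51 to 3.47, 4.35 and 2.70, again without overlap. Its change was 2.41 (SE 0.38, adjusted p = 0.000277). Oas1a, whose product activates RNase L, went from 1.17, 1.07 and 1.32 to 3.39, 3.70 and 2.51, a change of 2.01 (SE 0.33, adjusted p = 0.000359). Oas1a has close paralogs on the same chromosome, so its probe may also read them. Of the interferon-gamma targets, Cxcl10, a chemokine that draws in cells bearing Cxcr3, went from -3.59, -3.15 and -3.16 to 1.39, 0.85 and -1.41, a change of 3.57 (SE 0.90, adjusted p = 0.00617). Irgm1, an immunity-related GTPase, went from 1.36, 1.26 and 1.42 to 2.25, 2.49 and 1.97, a smaller change of 0.89 (SE 0.23, adjusted p = 0.00759). In all 5 genes array 3 was the lowest of the infused arrays. The number of called members was 25 without that array, 16 without infused array 2, 18 without control array 1, 12 when the fit held no other groups, and 27 within slide 1, which held the controls and the other infused arrays. Without control array 1 Isg15 had 2.02 (adjusted p = 0.00239).

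The called members of the infused knockout are given here by role, antiviral effectors first. Zbp1, a sensor of left-handed nucleic acid that can start cell death, changed by 2.59, Mx1 by 2.20, Rsad2 (viperin) by 2.16, Oas2 by 1.84, Rtp4 by 1.52, Ifit1 by 1.45, Bst2 (tetherin) by 1.36, Ifi44 by 1.31 and Oasl2 by 1.18, each past the threshold. C57BL/6 mice are known to carry a defective Mx1 gene, so its transcript is read here only as a transcript. Bst2 rested on the low control array 1, without which it had 0.74 (adjusted p = 0.0694). Without that array Irf7, Irf9 and Ifi47 also missed the threshold, at 1.32, 0.40 and 0.98 (adjusted p = 0.0551, 0.0793 and 0.0509). Among the regulators, Irf7, which amplifies interferon-alpha production, rose by 1.47, Usp18, which removes Isg15 from proteins and damps receptor signalling, by 1.33, Xaf1 by 0.80 and Irf9 by 0.44. Among the cytosolic RNA sensors Dhx58 rose by 1.35 and Ddx58 (RIG-I) by 0.50, while Ifih1 had 0.25 (adjusted p = 0.437). The type I targets that did not pass were Oas3, Ifit3, Ifit2, Mx2, Stat2, Ifih1 and Parp14, with values from -0.29 for Ifit2 to 0.84 for Ifit3 among those above background. Oas3 was well above background on 0 of 3 control and 1 of 3 infused arrays. Without infused array 3, Ifit3 had 1.33 (adjusted p = 0.00722).

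Cxcl9, the Cxcr3 ligand most tied to interferon-gamma, was not well above background on any knockout control array. Its measured means were -5.56 in knockout controls and -3.37 with infusion. A bound for such genes sets the brighter group's mean against the higher of the dim signal and the array's lowest signal that was well above background, and on that basis Cxcl9 was at least 2.29-fold higher with infusion in the knockout (adjusted p = 0.0109 for the fitted change). Ifi47, another immunity-related GTPase, rose by 0.90 (adjusted p = 0.0322). The antigen-processing genes Tap1 (0.64), Psmb8 (0.33) and Psmb9 (0.08), the GTPases Gbp3 (0.62), Igtp (0.47) and Gbp2 (-0.02), the transcription factor Irf1 (-0.33) and Cxcl11 (-0.11) did not pass.

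**Figure D1:**
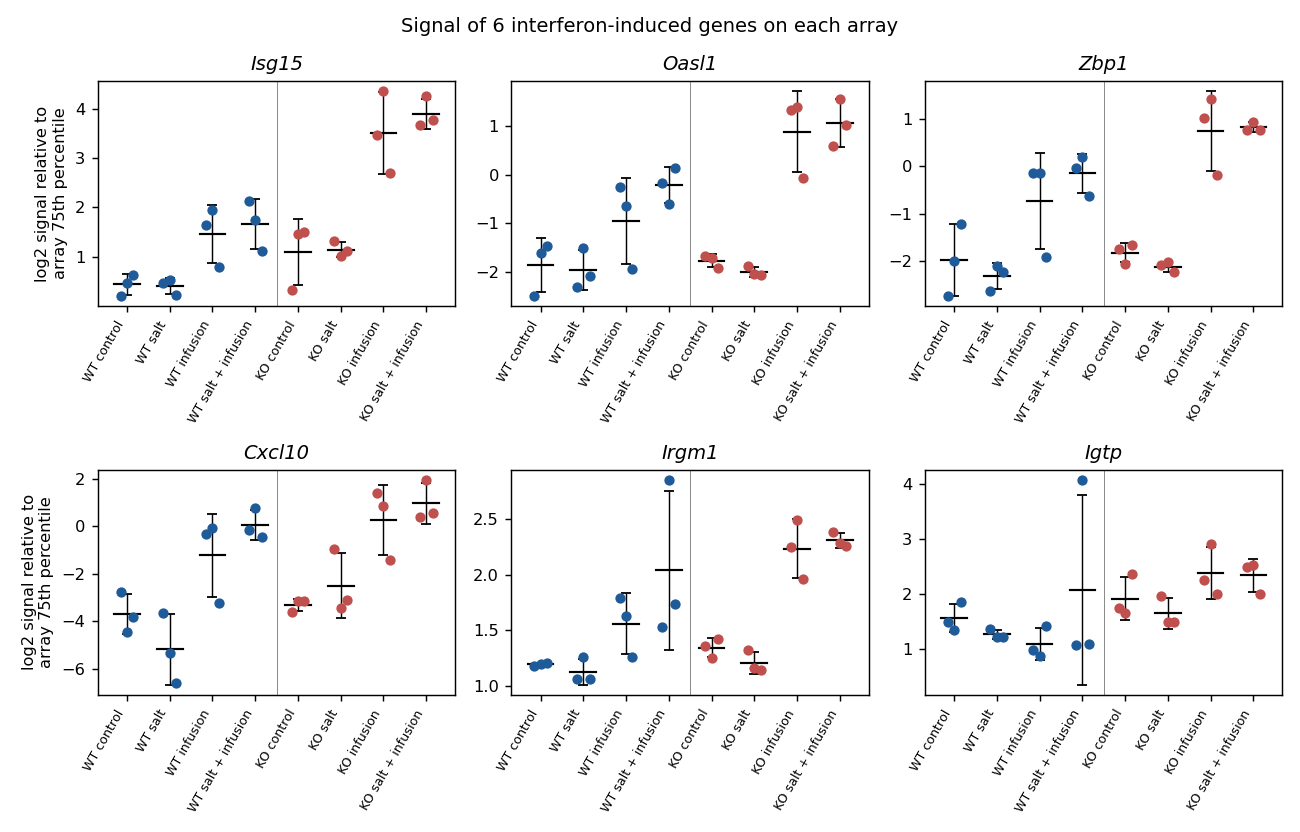
Signal on each of the 24 arrays for Isg15, Oasl1, Zbp1, Cxcl10, Irgm1 and Igtp, as log2 relative to the array's 75th percentile, with the mean (bar) and SD (whiskers) of the 3 arrays of each group; wild type (WT) in blue and IL-17 knockout (KO) in red. The knockout arrays with infusion, with or without salt, reach 4.35 for Isg15 and 1.57 for Oasl1, array 3 of each infused group without salt is the low one for Isg15, Oasl1, Zbp1 and Cxcl10, and 1 wild-type array with salt and infusion stands alone at 4.08 for Igtp.

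The wild type showed fewer calls under the same infusion. Ddx58, Zbp1 and Oas1a were higher than in wild-type controls, 3 of 37 members, and 0 were lower, while over all genes 12.2% were higher and 25.9% called in either direction. The share of members called higher was thus below that of all genes. The median change was 0.39 over type I targets and 0.11 over interferon-gamma targets, against -0.02 over all genes. All 3 called members were also called in the knockout, where they made up 3 of 22.

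Ddx58 lay at 1.21, 1.37 and 1.12 on wild-type control arrays and at 1.86, 1.90 and 1.55 on infused ones, without overlap, a change of 0.54 (SE 0.16, adjusted p = 0.0200). Its other probe went the other way without passing (-0.35, adjusted p = 0.145). Zbp1 went from -2.74, -2.00 and -1.22 to -0.15, -0.13 and -1.92, a change of 1.26 (SE 0.44, adjusted p = 0.0438). Oas1a went from 0.50, 1.40 and 1.12 to 2.37, 2.37 and 1.06, a change of 0.93 (SE 0.33, adjusted p = 0.0448). In both Zbp1 and Oas1a the third infused array lay within the range of the controls. Cxcl10 had the largest change of the members, 2.46 (SE 0.90), and just missed the threshold (adjusted p = 0.0506): its signals were -2.77, -4.44 and -3.80 in controls and -0.34, -0.07 and -3.22 with infusion. Irf1 had the next smallest p of the interferon-gamma targets at -0.37 (SE 0.22, adjusted p = 0.225), with 2.96, 3.22 and 3.28 in controls and 2.73, 2.70 and 2.93 with infusion.

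The wild-type count depended on single arrays and on the slide. It was 11 without infused array 3, among them Cxcl10 at 3.47 (adjusted p = 0.00578), and 0 without control array 1, infused array 1 or infused array 2. With slide as a fixed or a random block the count was 0 and Ddx58 had 0.72 (adjusted p = 0.113, fixed block). In that fixed block the wild-type slides are joined only by the arrays with salt and infusion, and the share of all genes called fell to 1.11%. Leaving out array 3 of both infused groups, an alternative chosen after seeing the data, gave 13 called members in the wild type and 25 in the knockout, at 40% and 45% of all genes called.

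With salt and infusion together, both genotypes showed calls, and the larger number was again in the knockout. There 23 of 37 members were higher than in controls, 21 of 25 type I and 2 of 12 interferon-gamma targets, against 12.7% of all genes higher and 25.7% in either direction. In the wild type 12 were higher, 9 type I and 3 interferon-gamma targets, against 13.3% and 28.7%. In neither genotype was a member lower. Median changes were 1.53 for type I and 0.54 for interferon-gamma targets in the knockout, and 0.63 and 0.47 in the wild type, against -0.02 and -0.06 over all genes. Of the 12 wild-type calls 11 were among the 23 in the knockout.

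In the knockout, Isg15 reached 3.67, 4.25 and 3.77 with salt and infusion, all above the controls, a change of 2.80 (SE 0.38, adjusted p = 7.45e-05). Oasl1 reached 0.59, 1.57 and 1.02, a change of 2.83 (SE 0.42, adjusted p = 0.000162). Oas2, which makes the same second messenger as Oas1a, went from -0.60, -0.25 and -0.40 to 1.34, 2.22 and 1.74. Its change was 2.18 (SE 0.34, adjusted p = 0.000272). These 3 genes separated all treated from all control arrays. Cxcl10 reached 0.40, 1.96 and 0.55, a change of 4.27 (SE 0.90, adjusted p = 0.00245), and Irgm1 reached 2.39, 2.28 and 2.26, a change of 0.96 (SE 0.23, adjusted p = 0.00562). With slide as a fixed block these values were larger, 4.01 for Isg15, 4.27 for Oasl1 and 6.79 for Cxcl10, and only array 3 of the knockout infusion group joins those slides. Without control array 1, Isg15 had 2.41 and Bst2 0.85 in place of 1.46. Mx2 and Ifit3 passed here and had not passed with infusion alone, and neither passed without control array 1, at 0.47 and 1.19 (adjusted p = 0.114 and 0.0708). In all, 20 members were called without that array. Oas3 is among the 23 calls. It was well above background on 3 of 3 arrays with salt and infusion and on 0 of 3 controls (means -3.77 and -6.48), a bound of at least 1.74-fold higher. It passed the filter on dim signals through that group alone, so its call is no support for a difference.

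In the wild type, Ifi44 went from -3.68, -3.36 and -3.70 to -2.66, -1.58 and -2.58, a change of 1.31 (SE 0.31, adjusted p = 0.00460). Zbp1 reached -0.03, 0.20 and -0.62, a change of 1.84 (SE 0.44, adjusted p = 0.00545), and Oasl1 went from -2.50, -1.61 and -1.47 to -0.18, -0.61 and 0.14, a change of 1.64 (SE 0.42, adjusted p = 0.00764). None of these overlapped their controls. Cxcl10 reached -0.16, 0.77 and -0.44, a change of 3.73 (SE 0.90, adjusted p = 0.00549). Ifi47 went from 0.96, 1.12 and 1.44 to 1.80, 3.16 and 2.02, a change of 1.15 (SE 0.31, adjusted p = 0.00984), of which 0.74 was left without array 2 (adjusted p = 0.0488). Rsad2, Ddx58, Oas1a, Bst2, Isg15, Rtp4 and Irgm1 also rose. Without array 2 Irgm1 had 0.44 in place of 0.84 (adjusted p = 0.0387), and Bst2 and Rtp4 missed the threshold at 1.1 and 0.54 (adjusted p = 0.0586 and 0.144). The count without array 2, in either direction, was 12, with Dhx58 newly called and Irf1 newly called lower. Within slide 3, which held the controls and 2 of these arrays, 11 members were called. The count was 8 without control array 1 and 14 without array 3 of the group with salt and infusion. On control array 1 the median difference of the 25 type I targets from the other wild-type controls was -0.62.

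**Figure D2:**
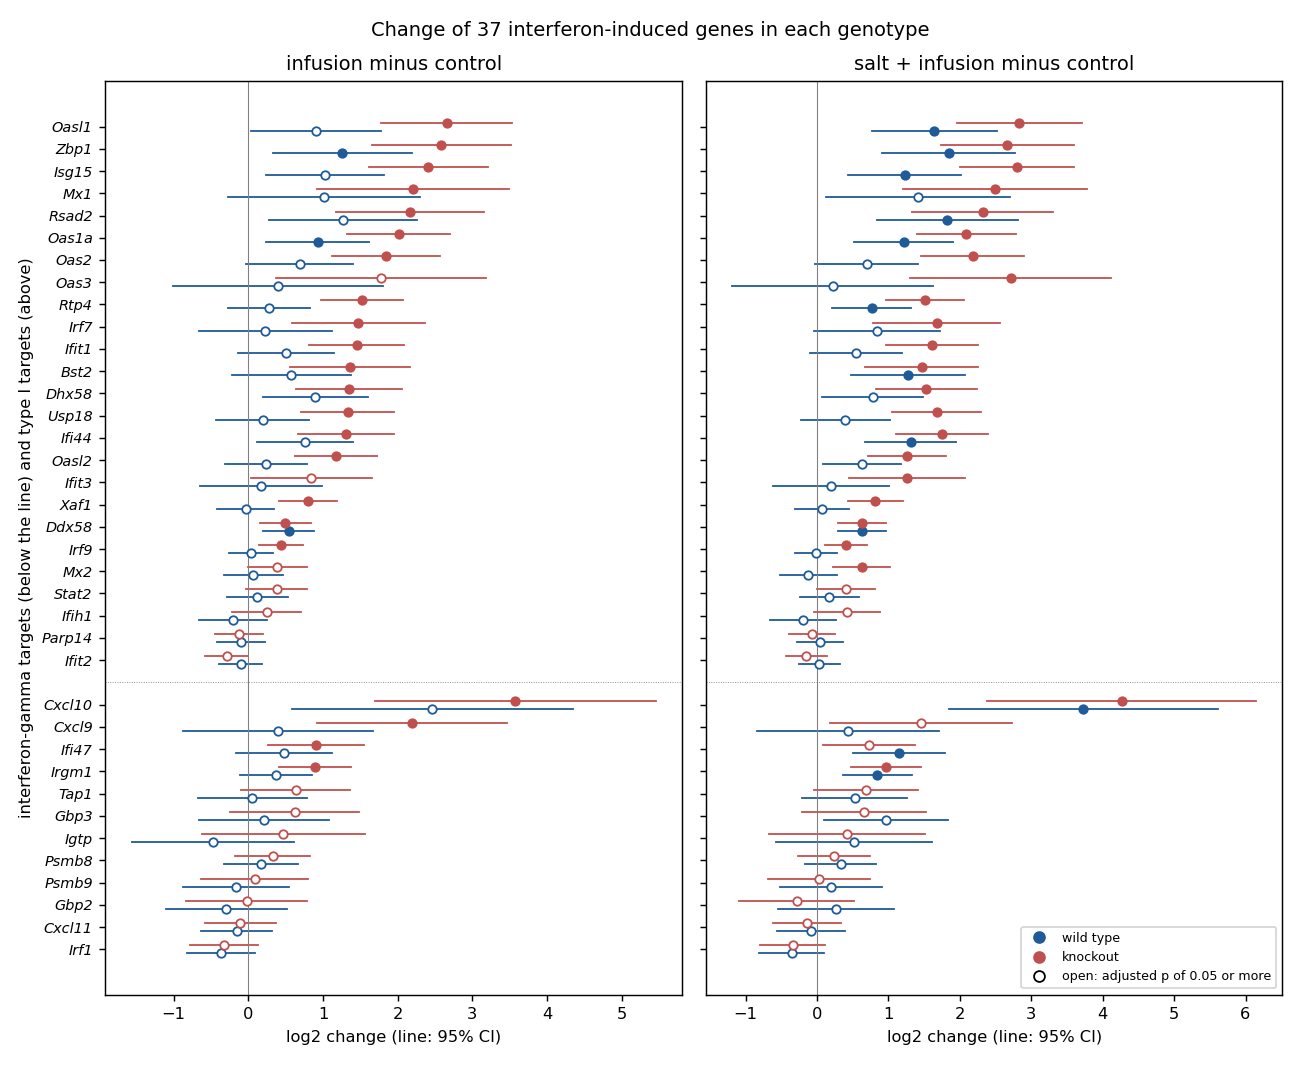
Change of each of the 37 genes as a difference of group means in log2 units (points) with its 95% confidence interval (lines), for infusion (left) and salt with infusion (right) against the control of the same genotype; blue is wild type, red is knockout, and filled points passed the test. Most type I targets lie further right in red than in blue, many of the intervals overlap, and the interferon-gamma targets other than Cxcl10 and Cxcl9 lie nearer to 0.

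Array 2 of the salted, infused wild type carried an interferon-gamma pattern of its own. Igtp, an immunity-related GTPase, lay at 1.07, 4.08 and 1.09 on the 3 arrays, Gbp2 at 1.62, 3.78 and 1.51, and Gbp3 at 0.96, 2.89 and 0.57. Tap1 lay at -2.46, -0.93 and -2.36 and Psmb9 at 1.32, 2.60 and 1.24. The median difference of the 12 genes from wild-type controls was 1.70 on that array and -0.11 and 0.01 on the others, while that of the type I targets was 0.90 against 0.73 and 0.40. Without that array the interferon-gamma median of the group fell to -0.07 from 0.47, and 4 members of the class were called, Cxcl10, Ifi47 and Irgm1 higher and Irf1 lower at -0.67 (adjusted p = 0.0112). Ifng lay at -4.08 on that array, 1 of the 3 arrays of 24 where it was well above background, and at -5.59 and -6.30 on the other arrays of the group. The summed signal of 12 T and natural killer cell markers, in units of the array's 75th percentile, was 9.87 there against 7.06 and 7.39, and the wild-type controls ran from 5.46 to 12.8. The part of such cells in this pattern was not tested.

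**Figure D3:**
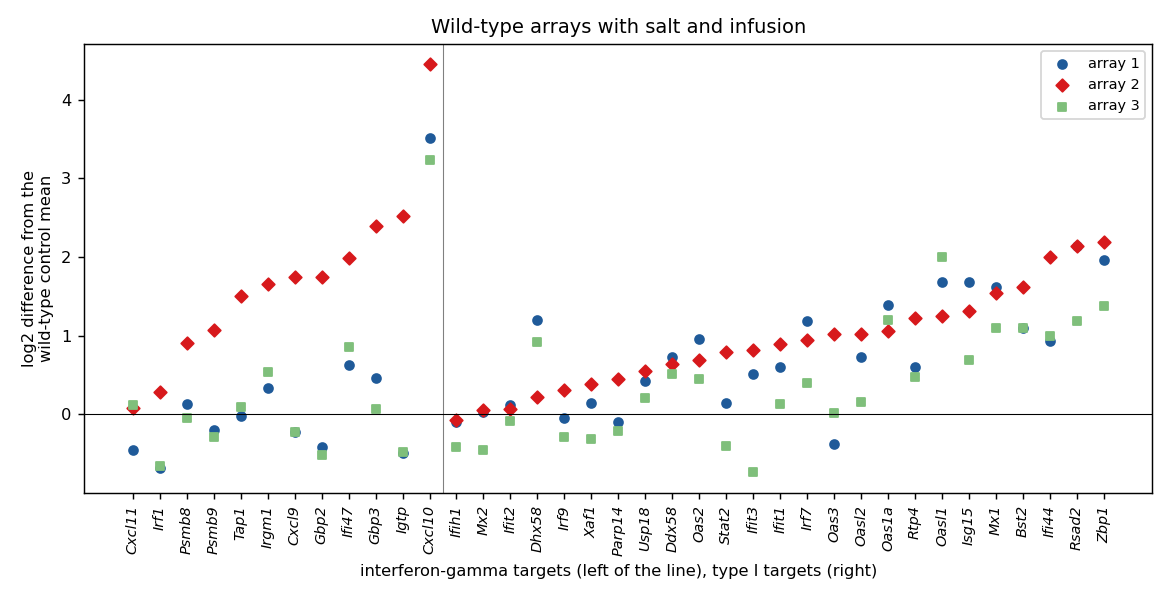
Difference of each gene from the wild-type control mean, in log2 units, on each of the 3 wild-type arrays with salt and infusion; interferon-gamma targets stand left of the line and type I targets right. Array 2 (diamonds) is above both other arrays for 11 of the 12 interferon-gamma targets and 15 of the 25 type I targets. Such counts were also reached elsewhere. Array 1 of the knockout on salt alone was above both others of its group for 11 of the 12 interferon-gamma targets. Array 2 of the knockout with salt and infusion was so for 25 of the 25 type I targets.

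Most members had the larger change in the knockout, and no test compared the classes. The change with infusion was larger in the knockout than in the wild type for 22 of 25 type I and 12 of 12 interferon-gamma targets, with median differences of 0.90 and 0.42. With salt and infusion it was larger for 23 of 25 type I but 5 of 12 interferon-gamma targets, with median differences of 0.75 and -0.08. For the latter, leaving out wild-type array 2 gave 0.36. Over all genes the median differences were -0.01 for infusion and 0.01 for salt with infusion. The 25 type I targets include Oas3. It passed the filter on dim signals only through the knockout with salt and infusion and is no support for a difference. No member passed the test of the difference between genotypes. In limma with Benjamini-Hochberg adjustment, 0 of 37 were called for infusion, 0 for salt with infusion and 0 for salt during infusion, with 10, 8 and 0 at an unadjusted p under 0.05, and 0%, 0.0255% and 0% of all genes called. The half-width of the 95% interval of a member's difference, not adjusted for the number of genes, was 0.98 at the median. Larger differences also missed the adjusted threshold, such as 1.25 for Rtp4 with infusion and 1.48 for Oas2 with salt and infusion. The test could thus miss differences of that size.

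The smallest p for infusion was that of Rtp4, a chaperone-like protein that restrains some viruses, whose change was larger in the knockout by 1.25 (SE 0.37, adjusted p = 0.545): it went from 1.31, 1.40 and 1.68 to 2.92, 3.44 and 2.60 in the knockout and from 0.97, 1.75 and 1.42 to 1.92, 1.81 and 1.23 in the wild type. Xaf1, which counters an inhibitor of apoptosis, followed at 0.84 (SE 0.26, adjusted p = 0.553). For salt with infusion the smallest were Oas2 at 1.48 (SE 0.48, adjusted p = 0.557) and Usp18 at 1.28 (SE 0.42, adjusted p = 0.557). With slide as a fixed block 5 type I targets passed in that comparison. They were Oas3, which was above background in only 1 of the 4 groups compared and is given no value, Ifit3 at 2.06 (adjusted p = 0.0286), Usp18 at 2.14 (0.0377), Isg15 at 2.52 (0.0406) and Oasl1 at 2.81 (0.0427), where 5.87% of all genes passed. That fit joins the knockout slides through the low array 3 of the infusion group, and with slide as a random block 0 passed.

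**Figure D4:**
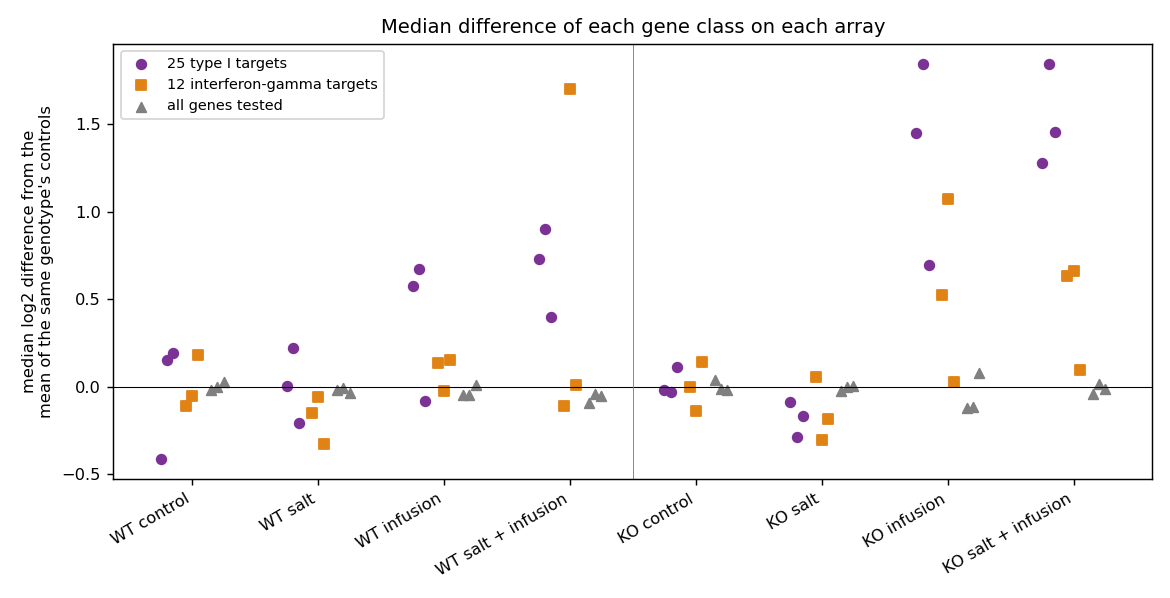
Median over 25 type I targets (circles), 12 interferon-gamma targets (squares) and all 23506 genes (triangles) of the log2 difference from the mean of the same genotype's control arrays, for each array of the 8 groups. The knockout arrays with infusion, with or without salt, have type I medians from 0.70 to 1.84, the wild-type ones from -0.08 to 0.90, and all-gene medians stay between -0.12 and 0.08.

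Compared directly, the knockout controls differed from the wild-type controls in 4 of 37 members, against 37.2% of all genes. Parp14, an ADP-ribosyltransferase, lay at 1.15, 1.24 and 1.01 in the wild type and at 1.86, 1.75 and 1.93 in the knockout, a difference of 0.72 (SE 0.15, adjusted p = 0.00142). Ddx58 was higher in the knockout by 0.71 (SE 0.16, adjusted p = 0.00226), at 2.0, 1.86 and 1.95. Cxcl9 and Cxcl11 were lower. Cxcl9 was well above background on all 3 wild-type controls and on 0 of 3 knockout controls, at least 1.52-fold lower in the knockout, but its other probe had 0.17 (adjusted p = 0.873). The Cxcl11 probe was bright on every array (7.82 to 9.11) and differed by -0.66 (adjusted p = 0.0294), and its other probe differed by -2.17 (adjusted p = 3.33e-06). C57BL/6 mice are known to carry a defective Cxcl11 gene, and neither probe passed the test in any of the 4 comparisons of infused groups with controls. Leaving out the third control array of either genotype brought the number of called members to 2.

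Under infusion the genotypes differed in 22 members, 21 higher and 1 (Cxcl11) lower in the knockout, against 46.1% of all genes in either direction and 18.8% higher. Of the 21, 18 were type I targets, and the medians were 1.03 for type I and 0.76 for interferon-gamma targets. Isg15 lay at 1.65, 1.95 and 0.80 in the infused wild type, all below the infused knockout, a difference of 2.04 (SE 0.38, adjusted p = 0.000329). Xaf1 lay at 0.41, 0.31 and 0.51 in the wild type and 1.31, 1.77 and 1.08 in the knockout, a difference of 0.98 (SE 0.18, adjusted p = 0.000357). Leaving out infused array 3 of the wild type or infused array 2 of the knockout brought the number of called members to 11 in either case. Under salt with infusion 17 members differed, 16 type I targets higher and Cxcl11 lower, against 28.6% of all genes in either direction and 10.5% higher. Isg15 differed by 2.23 (SE 0.38, adjusted p = 0.000315), with 2.12, 1.75 and 1.13 in the wild type. Usp18 lay at -0.71, -0.58 and -0.92 in the wild type and at 0.52, 1.40 and 0.83 in the knockout, a difference of 1.66 (SE 0.30, adjusted p = 0.000497). This count was 11 without knockout array 2. With slide as a random block the counts were 0, 4 and 8 for controls, infusion and salt with infusion, and genotype and slide cannot be told apart in any of them. Markers of other cells differed by genotype too. In controls the summed signal of 8 neutrophil markers was 196 to 240 in the wild type and 79.1 to 89.3 in the knockout. Of these, 6 were well above background on each wild-type control array and 5 to 6 on the knockout ones. That of 7 dendritic cell markers was 164 to 229 and 82.1 to 97.4, with 6 to 7 well above background in both. That of 8 smooth muscle markers was 2204 to 2868 and 1656 to 1966. Sums of 8 fibroblast markers (478 to 587 and 622 to 741) and 8 endothelial markers (60.4 to 67.2 and 84.8 to 93.5) were higher in the knockout. Such a sum can rest on a few bright probes. The part of these cells in the differences was not tested.

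No member passed the test for salt. For salt alone 0 of 37 members passed in either genotype (0% of all genes in both), and for salt during infusion 0 passed in either (0% of all genes in the wild type and 0.00425% in the knockout). At an unadjusted p under 0.05 there were 0 members for salt alone in the wild type, 1 in the knockout, and 1 and 0 for salt during infusion in the wild type and the knockout. The smallest p in the wild type belonged to Mx2 (0.36, SE 0.19) and Cxcl10 (-1.51, SE 0.90), the latter well above background on 1 of 3 salt arrays. In the knockout they belonged to Cxcl9, which was not above background in controls and at least 1.23-fold higher on salt, and Ifit1 (-0.56, SE 0.31), each with an adjusted p of 1.0. During infusion the smallest were Ifi47 (0.68, SE 0.31) and Irgm1 (0.48, SE 0.23) in the wild type, both at adjusted p = 0.843 and both high on array 2. In the knockout they were Ifi44 (0.44, SE 0.31) and Oas3 (0.93, SE 0.67), the latter well above background on 1 of 3 arrays without salt. Between genotypes the effect of salt during infusion differed most for Ifi47 (-0.86, SE 0.43, adjusted p = 0.717) and Mx2 (0.43, SE 0.27, adjusted p = 0.747).

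Where a member had another probe above the filter, both were compared. This held for 8 members, and in no comparison were both probes called in opposite directions. The other Isg15 probe passed in the wild type with infusion (1.67, adjusted p = 0.0146), and so did the other Oas1a probe (1.31, adjusted p = 0.00992). The other Zbp1 probe just missed there (1.37, adjusted p = 0.0511). Between genotypes that Zbp1 probe was higher in the knockout by 1.61 in controls (adjusted p = 0.0167) and by 2.91 under salt with infusion (adjusted p = 0.000346). The brightest Zbp1 probe had 0.16 and 0.98 and did not pass (adjusted p = 0.803 and 0.103). The other Cxcl9 probe rose in all 4 infused groups, by 2.24 and 2.95 in the wild type and by 3.55 and 3.22 in the knockout with infusion and with salt and infusion (adjusted p = 0.0274, 0.00554, 0.0014 and 0.00335), whereas the brightest probe passed only with infusion in the knockout. The other Ddx58 probe was negative without passing in each of those comparisons. The members that passed in none of the 4 comparisons against control were Ifit2, Parp14, Ifih1 and Stat2 of the type I targets and Irf1, Cxcl11, Gbp2, Gbp3, Igtp, Psmb8, Psmb9 and Tap1 of the interferon-gamma targets.

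Called ligand and receptor genes are given here beside the share of all genes called in either direction. That share was 25.9% and 30.6% with infusion in the wild type and the knockout, and 28.7% and 25.7% with salt and infusion. Ifnb1 was well above background on 0 of 24 arrays and Ifng on 3, so neither was tested. Of 15 listed ligand genes 8 were tested. Ifna1 (0.50, adjusted p = 0.0425) and Ifna5 (0.77, adjusted p = 0.0460) rose with infusion in the wild type, and Ifna5 was at least 1.73-fold higher with salt and infusion in the knockout (adjusted p = 0.0119). The interferon-alpha genes are near-identical copies of one another, so these probes are uncertain. The lambda interferon receptor Ifnlr1 fell by 0.80 with infusion in the knockout (adjusted p = 0.0281). The receptor Ifngr2 rose in the knockout by 0.40 with infusion (adjusted p = 0.0479) and by 0.54 with salt and infusion (adjusted p = 0.0122). Ifnar1, Ifnar2 and Ifngr1 did not pass in any of the 4 comparisons, with values from -0.16 to 0.29.

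Of 100 tested pathway genes that are not members, 14 rose and 7 fell with infusion in the wild type, and 22 rose and 4 fell in the knockout. With salt and infusion 14 rose and 9 fell in the wild type, and 20 rose and 3 fell in the knockout. In percent, 14, 22, 14 and 20 of these genes rose in the 4 comparisons in that order, beside 12.2%, 14.3%, 13.3% and 12.7% of all genes, and 21, 26, 23 and 23 were called in either direction, beside 25.9%, 30.6%, 28.7% and 25.7%. Among 15 sensor genes the DNA-sensing pair rose in both genotypes: Cgas, which makes a second messenger on cytosolic DNA, rose by 1.29 in the wild type (adjusted p = 0.000104) and 1.49 in the knockout (adjusted p = 3.69e-05) with infusion, and by 1.41 and 1.53 with salt and infusion. Sting1, which receives that messenger, rose by 1.66 and 1.56 with infusion and by 1.41 and 1.41 with salt and infusion. Ifi204, another DNA sensor, rose in the knockout by 1.43 and 1.34. Among 24 further type I targets the called genes were 1 higher and 4 lower in the infused wild type, where Slfn2 rose by 1.31 and Ifi35 fell by 0.63, and 8 higher and 0 lower in the infused knockout, where Ifi27l2a rose by 1.81, Slfn2 by 1.78 and Ifitm3 by 0.97. With salt and infusion these counts were 1 and 4, and 9 and 0.

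Among 15 signalling genes, 3 rose and 3 fell with infusion in the wild type and 5 rose and 3 fell in the knockout. Pias1, a SUMO ligase, fell by 0.61 and 0.68, and Irf5, a factor of inflammatory macrophages, rose by 1.1 and 1.17. Jak2, a kinase of the interferon-gamma receptor, fell by 0.41 in the knockout. Socs1, a feedback inhibitor of both receptors, fell by 0.86 in the wild type and by 0.67 in the knockout. Among 14 further interferon-gamma targets, 3 rose and 1 fell in the infused wild type and 2 rose and 1 fell in the infused knockout. The gene that fell in both was Socs1, which stands in both lists and is counted among the signalling genes too. Vcam1, which binds leukocytes to endothelium, rose by 1.48 and 1.02, and Lap3, a peptidase, by 0.74 in the knockout. Of 11 antigen-presenting class I genes 0 passed with infusion in either genotype, and with salt and infusion Psme2 passed in the wild type (0.33, adjusted p = 0.0297). Of 7 class II genes H2-DMb1 passed with infusion in the wild type (1.02, adjusted p = 0.0268) and had 0.84 in the knockout (adjusted p = 0.0583). With salt and infusion it rose in both, by 0.99 and 0.97 (adjusted p = 0.0288 and 0.0347), and Ciita, the master regulator of class II genes, fell by 1.35 in the wild type (adjusted p = 0.0147).

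Macrophage and monocyte markers had higher summed signal with infusion in both genotypes, and with salt and infusion the wild-type ranges overlapped. All 13 tested markers of 15 listed were well above background on every array. Their summed signal, in units of the array's 75th percentile, was 171 to 221 in wild-type controls, 236 to 275 with infusion and 214 to 239 with salt and infusion. In the knockout it was 133 to 148 in controls, 167 to 236 with infusion and 191 to 204 with salt and infusion. The sum of 8 fibroblast markers was lower, at 478 to 587 in wild-type controls and 325 to 442 with infusion, and at 622 to 741 in knockout controls and 441 to 571 with infusion. In whole tissue, more cells of a type and more RNA per cell cannot be told apart, and the part of cell makeup in these results was not tested.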

How the data were processed

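RNA from mouse aorta was measured on 24 single-colour arrays in 8 groups of 3, grouped by the labels. Wild-type salt arrays are numbered differently in titles and source names, and the source names were followed. The deposited scanner files give each spot's intensity on a linear scale, background-subtracted by Agilent Feature Extraction 10.7.1.1 per the file headers (9.5.1.1 per the submitters' processing notes) and not normalised between arrays. The authors' deposited value table holds their processed intensity values and served as an alternative. Its columns are linear and not centred, each with a median of 31.0 and the same direction as the scanner values, and how they were normalised is not given in the sources used here.

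Spots marked as outliers were dropped and repeat spots averaged. Probes had to exceed background clearly on 3 of 3 arrays in some group and to have values on 2 or more arrays in each group. Each array's 75th percentile was subtracted on the log2 scale, and the brightest kept probe stood for a gene. limma 3.58.1 in R 4.3.3 fitted all 8 group means over 23506 genes. P-values were adjusted by Benjamini-Hochberg over all genes, threshold 0.05. The number of arrays limits the precision. The fit was tested on simulated data.

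The members, gene lists, classes and tests were chosen with earlier results of these data known. Members given in full are, in each of the 4 comparisons of infused groups with controls, the 3 type I and 2 interferon-gamma targets of smallest p, and elsewhere the 2 of smallest p. Igtp, Gbp2 and other genes of the array that stood apart were named after their values were seen. As alternatives, signals were quantile-normalised, background-corrected by normexp with offset 50, or replaced by the authors' values, with further runs on other filters and probe rules, slide and replicate blocks, only the compared groups, and fewer arrays. Promoters are RefSeq windows on GRCm38.p6, searched with Python 3.11.15, and figures were drawn with matplotlib 3.10.9. One item is not reported here.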

Additional observations from a re-analysis of the deposited data

How the results depend on the processing

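With 3 arrays per group and genotype on separate slides, the least certain results are the wild-type infusion count and the direct genotype comparisons. Infusion in the wild type, with 3 called members, gave 6 with quantile normalisation, with the authors' values, with probes well above background on all arrays and with the replicate block, 1 without a filter on dim probes, 0 with only the compared groups, 0 with slide as a fixed block and 0 as a random block, and 13 without array 3 of both infused groups (added after seeing the data). With only the compared groups, infusion in the knockout gave 12 in place of 22 and genotype under infusion gave 6 in place of 22. With slide as a random block, where arrays of a slide had a correlation of 0.48, genotype in controls gave 0 in place of 4, genotype under infusion 4 in place of 22 and genotype under salt with infusion 8 in place of 17. The genotype difference for salt with infusion gave 5 with slide as a fixed block in place of 0. The cause was not tested.

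Leaving out each array in turn gave 0 to 11 called members for infusion in the wild type, 16 to 25 in the knockout, 8 to 14 (wild type) and 20 to 23 (knockout) for salt with infusion, 2 to 6 for genotype in controls, 11 to 31 under infusion and 11 to 20 under salt with infusion. It gave 0 for salt alone, salt during infusion and every genotype difference. Of the named members' values under all alternatives, 664 kept their direction and side of the threshold, 28 lost the call, 6 gained it and 3 reversed. Irf1 with infusion in the wild type had 0.095 with slide as a fixed block, and Oas3 with salt during infusion in the knockout had -0.026 without array 3 of the infusion group and -0.026 without array 3 of both infused groups, within a range from -0.026 to 1.67 when arrays were left out in turn.

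The replicate numbers did not pair the arrays: over 36 same-numbered pairs within a genotype the mean correlation of deviations was -0.042, with 5 over 0.1. The replicate block moved the wild-type infusion count from 3 to 6 and left every other count within 1.5 times.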
